A study of Mus musculus with 5 samples.

Results

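The genes described here are 10 genes of the vessel lining, chosen by name from what their products do: Apold1, Vcam1, Icam1, Sele, Selp and Esm1, which endothelial cells make or raise when activated, and Icam2, Pecam1, Cdh5 and Vwf, which mark endothelium at rest. The choice was made with earlier results of these data known. The arrays carry 15 probe sets annotated to exactly 1 of these genes, of 34945 probe sets for 18193 genes in all. RNA came from the hearts of untreated female mice, collected after bleeding and perfusion with saline, with 1 Affymetrix Mouse430_2 array for each of 5 samples. One group is 3 hearts of NZB_W mice (NZB/W F1 in the series title), hybrids of NZB and NZW parents in which lupus nephritis arises without treatment. These were aged 12 to 15 weeks, and Austin scoring put their kidney injury at moderate. The control group is 2 hearts of healthy NZW mice, a parental strain, matched in age. Strain and kidney disease differ together between these groups and cannot be told apart. The titles call the samples biological replicates.

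Endothelial cells let leukocytes out of the blood in steps. Selectins slow the cells, the immunoglobulin-like ligands ICAM-1, ICAM-2 and VCAM-1 hold them through integrins, and PECAM-1 and VE-cadherin sit at the junctions through which they pass. E-selectin, VCAM-1 and ICAM-1 are made on demand, largely through NF-kB after cytokines such as TNF, whereas ICAM-2, PECAM-1 and VE-cadherin are present on resting vessels. P-selectin and von Willebrand factor are stored together in Weibel-Palade bodies and released on stimulation. The question is whether genes of the activated state differed between NZB_W and NZW hearts apart from genes that mark how much endothelium a sample holds.

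Of the 10 genes, Apold1 was the one whose NZB_W and NZW values lay clearly apart. It read 2.28-fold higher in NZB_W hearts, with a gap of 0.97 on the log2 scale between the lowest NZB_W array and the highest NZW array. The cytokine-induced adhesion genes gave no such separation: the groups overlapped or tied for Vcam1, Icam1 and Sele and on the testable Selp probe set, and Sele and Esm1 were dim on all 5 arrays. The resting markers Icam2, Pecam1 and Cdh5 read slightly higher in NZB_W, and Vwf did not. None of the 10 member probe sets that were bright enough to test passed the threshold, an adjusted p under 0.05 in limma (a linear model that shares information on spread across probe sets) over 22804 probe sets. In that fit 5 probe sets passed in all, or 0.0219%. At an unadjusted p under 0.05 the members' count was 1, Apold1, against 5.25% of all probe sets.

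The promoters of Apold1, whose groups were separated, and of the textbook cytokine-induced genes Icam1 and Sele, whose groups overlapped, are shown so that they can be compared. They run from 250 bases before to 50 bases after the annotated start, 5′ to 3′ on the strand of the gene, from RefSeq for GRCm38.p6, whose table held 5 of the 10 members (Apold1, Icam1, Sele, Selp and Esm1). All 3 lie on the plus strand, at chr6:134981751-134982050 for Apold1, chr9:21015690-21015989 for Icam1 and chr1:164047984-164048283 for Sele. Capitals mark the letters TATAAA, those of a core promoter element, and GGNNNTTCC (a loose form of the NF-kB site), each searched on both strands. These letters were chosen after the sequences were seen.
Apold1: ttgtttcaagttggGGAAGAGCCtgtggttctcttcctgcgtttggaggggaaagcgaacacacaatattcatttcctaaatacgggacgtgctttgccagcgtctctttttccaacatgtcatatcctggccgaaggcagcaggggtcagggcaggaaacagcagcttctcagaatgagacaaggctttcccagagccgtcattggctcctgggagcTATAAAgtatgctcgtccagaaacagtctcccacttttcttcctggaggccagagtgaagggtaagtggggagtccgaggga
Icam1: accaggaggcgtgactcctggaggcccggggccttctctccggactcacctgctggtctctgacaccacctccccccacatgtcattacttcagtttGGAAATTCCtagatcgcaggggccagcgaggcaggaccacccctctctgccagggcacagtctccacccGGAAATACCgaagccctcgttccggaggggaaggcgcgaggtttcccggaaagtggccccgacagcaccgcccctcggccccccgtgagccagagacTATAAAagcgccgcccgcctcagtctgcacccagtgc
Sele: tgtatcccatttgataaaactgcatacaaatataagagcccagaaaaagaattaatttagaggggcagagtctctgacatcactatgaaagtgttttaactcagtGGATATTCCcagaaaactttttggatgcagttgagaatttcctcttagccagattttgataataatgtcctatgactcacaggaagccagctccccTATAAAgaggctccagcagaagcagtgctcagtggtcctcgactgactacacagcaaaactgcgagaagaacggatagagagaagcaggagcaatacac

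All 3 windows hold TATAAA, which 13.6% of the 32851 promoters in the table hold. It starts 32 bases before the annotated start in Apold1, 49 before in Sele and 13 after in Icam1. All distances are counted from the annotated start, whose place in these hearts was not tested. GGNNNTTCC is found in 18.5% of all promoters. Icam1 has it 153 bases before the start, matching the pattern on both strands, and 84 bases before on the reverse strand. Sele has it 145 bases before, and Apold1 236 bases before on the reverse strand. Selp, whose sequence is not shown, has it 14 bases before on the reverse strand, and Esm1 has no match. The letters TGACNTCA (8.83% of promoters) occur in Sele and Esm1, TGANTCA (7.81%) in Sele and Selp, and the CArG box (1.63%), the site of serum response factor, in none of the 5. These matches are descriptions of the reference sequence, which is not that of NZB or NZW.

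Apold1 encodes apolipoprotein L domain containing 1, an endothelial early response protein. Its probe set (1441228_at) read, on the deposited log2 scale, 7.75 for NZB_W array 1, 7.37 for array 2 and 7.28 for array 3, against 6.25 for NZW array 1 and 6.30 for array 2. Later values keep this order of arrays. Every NZB_W array was above both NZW arrays, and the distance between the groups exceeded the range within either (0.48 and 0.049). The means were 7.47 ± 0.25 (SD, n = 3) and 6.28 ± 0.034 (SD, n = 2), a log2 difference of 1.19 (SE 0.16, 95% interval 0.76 to 1.62). Of 22804 probe sets tested, 88 had a larger difference in the direction of NZB_W. The limma adjusted p was 0.409, so the difference did not pass over all probe sets, and 58 probe sets had a smaller p. An exact permutation test of the 5 arrays, two-sided, gave p = 0.2, the smallest that 3 against 2 arrays allow. The members were chosen with earlier results of these data known, so these ranks and p-values are not those of a gene picked blind. The arrays carry 1 probe set for Apold1, so no other probe set of the gene bears on this value.

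Every value behind these statements is plotted array by array.

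**Figure D1:**
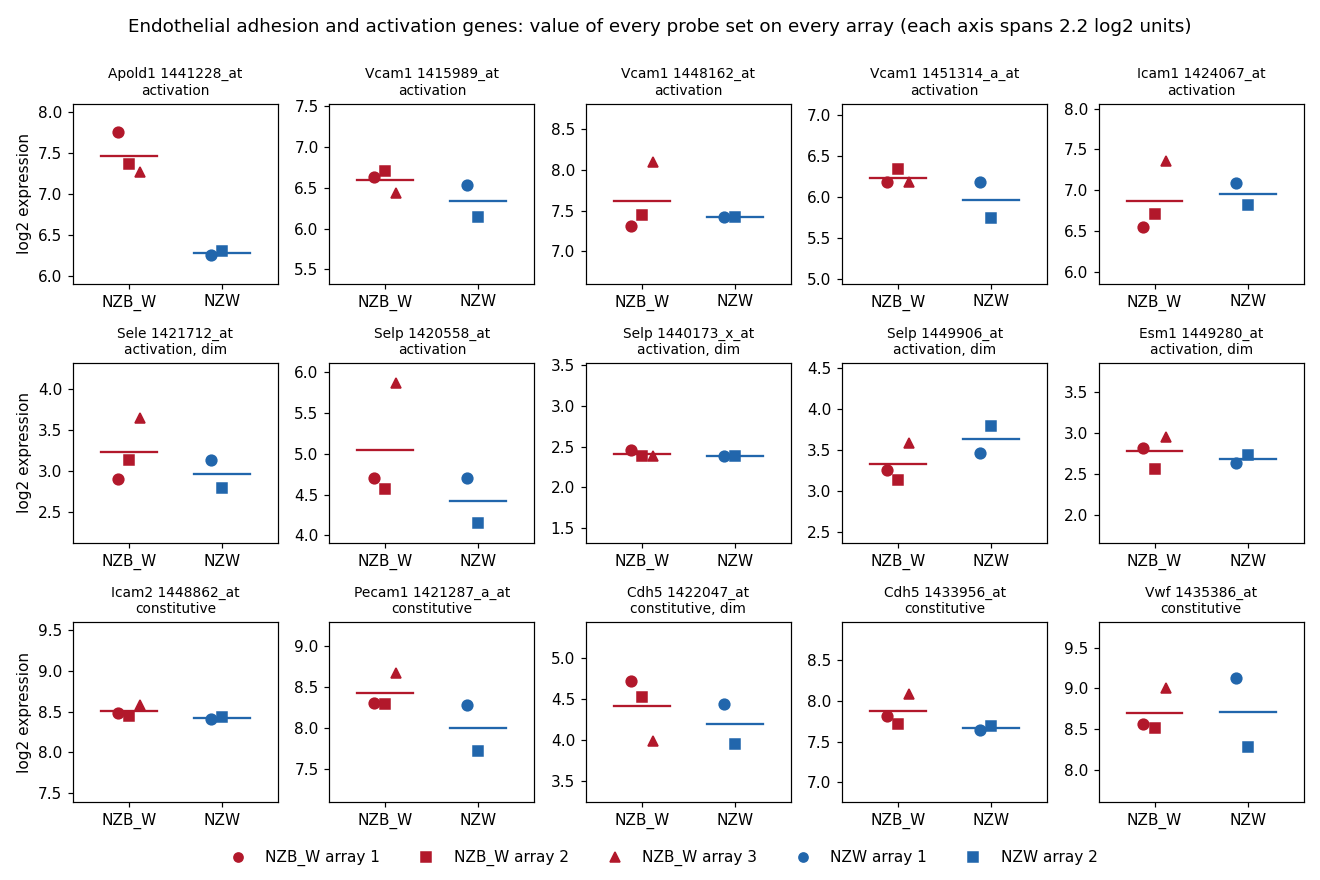
Log2 expression of the 15 member probe sets on the 3 NZB_W arrays (red) and 2 NZW arrays (blue), with each group's mean as a line; every vertical axis spans 2.2 log2 units, and "dim" marks probe sets that failed the brightness filter. The Apold1 groups are separated by 0.97, whereas in most other panels the groups overlap and the triangle of NZB_W array 3 is often the highest point.

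Among the selectins, which catch flowing leukocytes, signals were weak. Sele, E-selectin, read 2.91, 3.13 and 3.65 in NZB_W and 3.13 and 2.80 in NZW (1421712_at). It was below the median of every array and below the lower quartile of 4 of the 5, so it failed the brightness filter. Without the filter its difference was 0.26 (95% interval -0.46 to 0.99), and the groups overlapped.

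Selp, P-selectin, had 1 of 3 probe sets bright enough to test (1420558_at), at 4.70, 4.57 and 5.87 in NZB_W and 4.70 and 4.15 in NZW. Array 3 alone stood above the rest: NZB_W array 1 and NZW array 1 read the same to 2 decimals. The difference was 0.62 (SE 0.46, 95% interval -0.60 to 1.85, limma adjusted p = 0.883). It was 0.21 when NZB_W array 3 was dropped, 0.35 when NZW array 2 was, and -0.063 without both. The other Selp probe sets were dim on all arrays and differed by 0.023 (1440173_x_at) and -0.30 (1449906_at). Platelets also carry P-selectin and von Willebrand factor; of 9 listed platelet genes and VWF partners 5 were bright enough to test, with a median difference of 0.098. Centred on the mean of each gene, the list's medians on single arrays ran from -0.12 to 0.14. The part of platelets in the Selp values was not tested.

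Vcam1, the ligand of integrin alpha 4 beta 1, was measured by 3 probe sets that passed the filter. The brightest (1448162_at) read 7.31, 7.44 and 8.10 in NZB_W and 7.41 on both NZW arrays. The NZB_W arrays lay on both sides of the NZW value, array 1 below it and array 3 above. The difference was 0.20 (SE 0.26, 95% interval -0.48 to 0.89), and -0.038 without NZB_W array 3.

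The other Vcam1 probe sets ranked the arrays differently. NZB_W values of 6.63, 6.71 and 6.43 stood against 6.54 and 6.14 on 1415989_at, where array 3 was the lowest of its group. On 1451314_a_at they were 6.18, 6.34 and 6.18 against 6.18 and 5.74. These differences were 0.25 (SE 0.16) and 0.27 (SE 0.15). Without NZW array 2, the lowest array on both, they were 0.054 and 0.053, and without NZW array 1 they were 0.45 and 0.49. All 3 Vcam1 differences were thus positive with 5 arrays, but the probe sets did not put the same array highest.

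Icam1, the ligand of the beta 2 integrins, read 6.56, 6.71 and 7.36 in NZB_W and 7.09 and 6.83 in NZW (1424067_at). NZB_W arrays 1 and 2 were the lowest of the 5 and array 3 the highest. The difference was -0.085 (SE 0.28, 95% interval -0.81 to 0.64, limma adjusted p = 0.966), -0.33 without NZB_W array 3, -0.22 without NZW array 2 and -0.46 without both. It was 0.074 without NZB_W array 1 and 0.049 without NZW array 1, so its sign depended on which array was left out. The interval does not cover a rise of the size fitted for Apold1.

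Esm1, endocan, a secreted proteoglycan of activated and sprouting endothelium, was dim. It read 2.82, 2.56 and 2.95 in NZB_W and 2.63 and 2.73 in NZW (1449280_at), below the lower quartile on all 5 arrays. A transcript at this brightness would not show a difference reliably, and the value without the filter was 0.091 (95% interval -0.27 to 0.46).

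Of the resting markers, Icam2, a ligand of integrin LFA-1, had the smallest range within NZB_W (0.13) of the probe sets tested. It read 8.48, 8.45 and 8.58 in NZB_W and 8.41 and 8.43 in NZW (1448862_at), a difference of 0.081 (SE 0.069, 95% interval -0.10 to 0.26). The groups did not overlap, but only 0.015 separated them, and the difference was 0.043 with NZB_W array 3 dropped.

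Pecam1, the junction protein CD31, read 8.31, 8.29 and 8.67 in NZB_W and 8.27 and 7.72 in NZW (1421287_a_at). NZW array 2 was the low value and NZW array 1 lay only 0.014 under the lowest NZB_W array. The difference of 0.43 (SE 0.22, 95% interval -0.15 to 1.001) was the largest of the 4 resting markers. It was 0.30 with NZB_W array 3 dropped, 0.15 with NZW array 2 dropped, 0.71 with NZW array 1 dropped and 0.024 with arrays NZB_W 3 and NZW 2 both dropped.

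Cdh5, VE-cadherin, the adhesion protein of endothelial junctions, read 7.82, 7.72 and 8.08 in NZB_W and 7.64 and 7.69 in NZW (1433956_at). The groups were 0.030 apart, and the difference was 0.21 (SE 0.12, 95% interval -0.12 to 0.53), or 0.10 with NZB_W array 3 dropped. Its second probe set (1422047_at) was dim, overlapped, and put array 3 lowest in NZB_W, at 3.99 against 4.72 and 4.52.

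Vwf, the platelet-tethering multimer of plasma and endothelium, read 8.56, 8.52 and 9.01 in NZB_W and 9.13 and 8.29 in NZW (1435386_at). The NZW arrays were the highest and the lowest of the 5, so the fitted difference of -0.014 (SE 0.31, 95% interval -0.82 to 0.80) rests on a control spread wider than that of NZB_W. Dropping NZW array 2 gave -0.44, dropping NZW array 1 gave 0.41, dropping NZB_W array 3 gave -0.17, and dropping NZB_W 3 with NZW 2 gave -0.59.

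**Figure D2:**
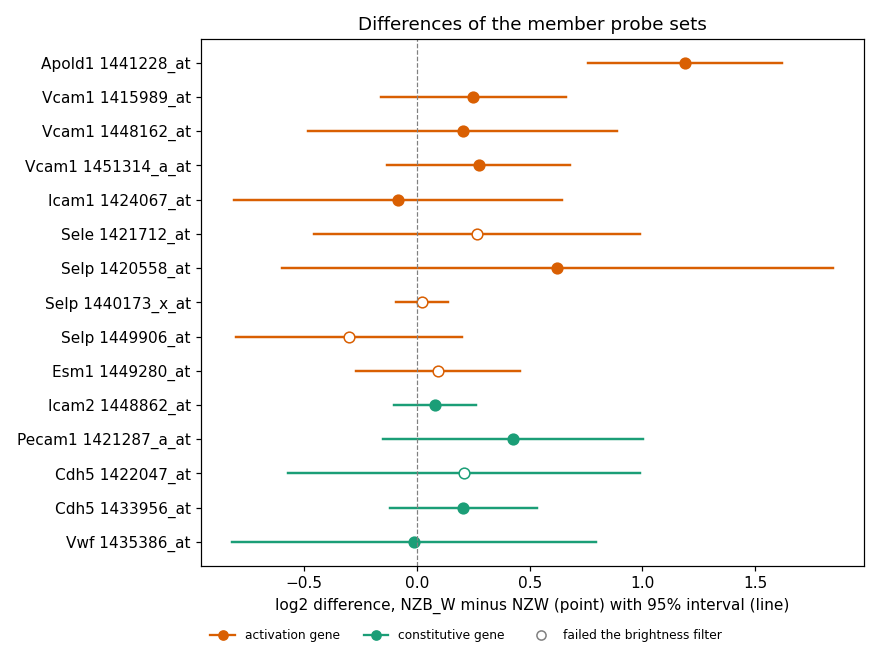
Log2 difference of each member probe set (NZB_W minus NZW, points) with limma's 95% interval (lines), orange for activation genes and green for constitutive genes, open points for probe sets that failed the brightness filter and were fitted without it. The Apold1 interval runs from 0.76 to 1.62 and is the one that does not include 0.

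Counted together, 8 of the 10 member probe sets tested had a positive difference, with a median of 0.23, against 10401 of 22804 and a median of -0.013 over all probe sets tested. In 4 members (Apold1, Icam2, Pecam1 and Cdh5) every NZB_W array was above both NZW arrays, which was so for 6.96% of all probe sets, and in 0 members every NZB_W array was below both, which was so for 9.66%. Outside Apold1 the separation in these members was 0.014 to 0.030, smaller than the range within NZB_W for each of them. With each array median centred the count above was 3, and without NZW array 1 it was 8 of the 10 probe sets. The count below was 1 without NZB_W array 3 (Icam1), 1 without NZW array 2 (Vwf) and 2 with neither array.

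As classes, activation and constitutive genes gave nearly the same group difference when all members were included, Sele and Esm1 at their dim levels among the 6 activation genes. Each gene was represented by its brightest probe set relative to its mean over the 5 arrays, and a class by the median of its genes on an array. The activation class read -0.16, -0.14 and 0.49 in NZB_W against -0.10 and -0.22 in NZW. The constitutive class read 0.019, -0.045 and 0.30 against -0.019 and -0.26. Both classes were highest on NZB_W array 3 and lowest on NZW array 2, and their group differences were 0.23 and 0.23. Activation minus constitutive was -0.18, -0.093 and 0.19 in NZB_W and -0.083 and 0.032 in NZW, a difference between groups of -0.00046, with a pooled SD over arrays of 0.17. No test was made, since genes of a class are not replicates. With the mean of the genes in place of the median, the difference was 0.21. With only genes that passed the brightness filter it was 0.086, and the median fitted difference was then 0.41 for 4 activation genes and 0.14 for 4 constitutive genes.

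Set against the constitutive class on the same array, Apold1 still separated the groups. Apold1 minus the constitutive median was 0.74, 0.42 and -0.012 in NZB_W and -0.72 and -0.43 in NZW, a difference of 0.96. Selp gave a difference of 0.39 in this way, with overlapping arrays, and Icam1 one of -0.31. For Icam1 all NZB_W arrays lay below both NZW arrays, array 3 only just (0.156 against 0.173 for NZW array 2). The remaining arrays read -0.371 (NZB_W 1), -0.157 (NZB_W 2) and 0.203 (NZW 1). No share over all genes was computed for this measure. Vcam1, Sele and Esm1 gave differences from -0.14 to 0.036. In a bulk sample, fewer cells of a type and less RNA per cell cannot be told apart.

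Endothelial identity genes outside the members did not separate the groups as a list. Of 20 listed endothelial identity genes, all bright enough to test, 15 were positive and 5 negative, with a median of 0.077 beside -0.014 over 11896 genes, and 0 passed the test in either direction. In 4 of the 20, Esam and Mmrn2 among them, every NZB_W array was above both NZW arrays, and in 0 below. Over all 11896 genes these counts were 903 and 1170. The list's median on each array was -0.012, -0.041 and 0.16 in NZB_W against -0.023 and -0.040 in NZW, with only array 3 standing above the rest. Esam, a junction adhesion molecule, differed by 0.28 (SE 0.095) and Mmrn2, an endothelial matrix protein, by 0.37 (SE 0.13), whereas the VEGF receptor Kdr, whose signal raises Esm1, differed by 0.083 (SE 0.24). Of 12 junction and transmigration genes 7 were positive (median 0.038), and of 13 VEGF and angiopoietin genes 8 (median 0.037), with 0 passing in both. In 3 junction genes and 2 of the VEGF list every NZB_W array was above both NZW arrays, and in 1 junction gene every one was below. Angpt2, which Weibel-Palade bodies also hold, differed by 0.11 (SE 0.088). Of 5 lymphatic endothelial genes 0 were positive and 0 passed (median -0.12). In 2 of them, Prox1 and Reln, every NZB_W array was below both NZW arrays, beside 1170 of all 11896 genes. The list's median by array was -0.233, -0.0455 and -0.0129 in NZB_W against 0.182 and 0.00835 in NZW, so this list did separate the groups, array 3 only just. Of 4 endocardial genes 1 was positive and 0 passed (median -0.27), and 0 separated the groups. Cardiomyocyte markers such as Myh6, at 14.09 to 14.25 on all arrays, were bright, as the tissue label states, and their median difference was -0.038.

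Of 20 listed NF-kB and cytokine response genes, 15 were bright enough to test. Of these 12 were positive, with a median of 0.29, and 0 passed. In 5 every NZB_W array was above both NZW arrays, which was so for 903 of all 11896 genes. Il1b, among the positive genes, passed the brightness filter only through NZB_W arrays and is named for that reason. Tnf, the cytokine itself, differed by -0.047 (SE 0.080) with overlapping groups, and is named after its value was seen. Nfkbia, the inhibitor that NF-kB itself induces, read 11.73, 11.66 and 11.21 in NZB_W and 11.18 and 10.81 in NZW, a difference of 0.54 (SE 0.21), and its 4 other probe sets differed by 0.43 to 0.68. Relb differed by 0.48 (SE 0.18) and Birc3 by 0.42 (SE 0.15). In all 3 the NZB_W arrays lay above the NZW arrays, for Nfkbia only just (11.21 against 11.18). They are named for having the smallest p of the list, so their separation is not further evidence. Most tested genes of the list did not separate the groups singly. The list's median by array was 0.0903, -0.0419 and 0.303 in NZB_W against -0.0567 and -0.235 in NZW. It thus separated the groups, NZB_W array 2 only just.

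The leukocyte partners that bind the members were also measured. Of 11 counter-receptor genes tested 10 were positive (median 0.29) and 0 passed. In 2 of them every NZB_W array was above both NZW arrays, beside 903 of all 11896 genes. Itgam, the alpha chain of Mac-1 that binds ICAM-1, read 5.09, 4.76 and 5.39 in NZB_W and 3.69 and 3.77 in NZW, a difference of 1.35 (SE 0.20, limma adjusted p = 0.434), with both NZW values below the array medians. Its partner Itgb2 differed by 0.58 (SE 0.30), the LFA-1 chain Itgal by 0.28 (SE 0.17), the selectin ligand Selplg by 0.35 (SE 0.26), and the VCAM-1 receptor chains Itga4 and Itgb1 by 0.34 (SE 0.21) and 0.18 (SE 0.12). Itgal was also below the array median on both NZW arrays. Itgam and Itgal thus passed the brightness filter only through NZB_W arrays, which favoured a positive difference in advance.

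Leukocyte markers were high on the array on which most members were high. All 6 pan-leukocyte markers were positive and separated the groups (median 1.03), beside 903 of all 11896 genes separated in this direction, although 0 passed. The medians by array were 0.057, -0.021 and 1.26 for NZB_W and -0.56 and -0.76 for NZW. The 8 macrophage markers (all positive, 5 separated, median 0.59) gave -0.0060, -0.017 and 0.77 against -0.11 and -0.47. Both lists were highest on NZB_W array 3 and lowest on NZW array 2, as were the activation and constitutive classes. NZB_W array 3 held the highest value in 6 of the 10 member probe sets tested (60.0%) and in 27.8% of all probe sets, and its correlation over all probe sets was 0.977 with NZB_W array 1 and 0.981 with array 2, while that of arrays 1 and 2 was 0.993. Apold1 went the other way within NZB_W: it was lowest on array 3, where leukocyte markers were highest. The part of leukocyte content in the member values was not tested. Of 5 red blood cell genes 2 were testable (median 2.45, with 1.44, -0.67 and 2.17 against -1.33 and -1.61), and of 8 mural cell genes 6 were positive (median 0.14). Of the testable red blood cell genes, Slc4a1 passed the brightness filter only through NZB_W arrays. The 3 neutrophil genes had a median of -0.36 and the 2 T and NK cell genes that were testable one of 0.012.

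**Figure D3:**
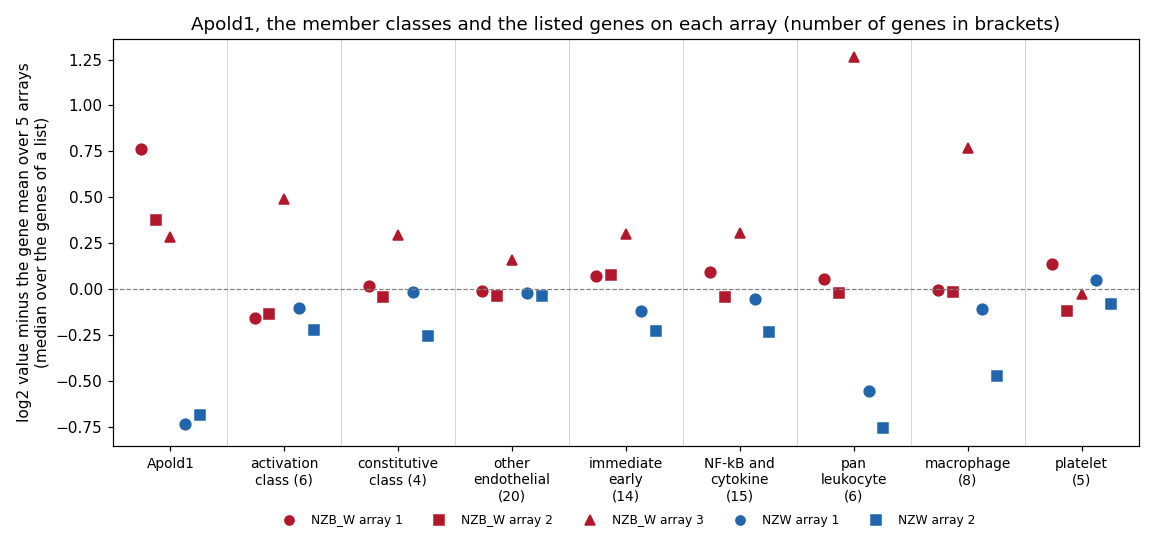
Apold1, the member classes and 6 gene lists on each array (red NZB_W, blue NZW), as the log2 value minus the gene's mean over the 5 arrays, with the median over genes for a class or list. Apold1 separates the groups with NZB_W array 3 the lowest of its group, while the classes, leukocyte and macrophage lists peak on that array.

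Apold1 is known as an immediate early gene, so that group is set beside it. Of 14 immediate early genes tested 13 were positive and 7 separated the groups, against the same 903 of 11896, with a median of 0.43, and 0 passed. The stress transcription factor Atf3 read 7.73, 7.40 and 7.76 in NZB_W and 6.998 and 6.85 in NZW, a difference of 0.71 (SE 0.14, limma adjusted p = 0.625). Zfp36, which destabilises cytokine mRNAs, differed by 0.74 (SE 0.20), and Klf4 by 0.25 (SE 0.084) on its brightest probe set and 0.042 on its other. By array the list's median was 0.072, 0.075 and 0.30 for NZB_W and -0.12 and -0.23 for NZW, so it separated the groups with array 3 the highest. Single genes differed in this: of the 7 that separated the groups, 4 (Zfp36, Dusp1, Klf2 and Klf6) were lowest in NZB_W on array 3, as Apold1 was. Every tested gene of the list whose groups overlapped was highest in NZB_W on array 3, unlike Apold1. These include Fos, Jun, Junb, Egr1, Ier2 and Ier3. Dusp1, Klf2, Klf6 and the overlapping genes were chosen for mention with their values already seen.

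By root mean square distance over the 5 arrays between values centred on each gene's mean, the genes most like Apold1 were Prom1 (0.13), Serpinb6b (0.14) and Cdkn1a (0.16). Prom1, the membrane glycoprotein CD133, read 6.75, 6.45 and 6.21 in NZB_W and 5.26 and 5.61 in NZW, with the same order of arrays within NZB_W as Apold1. Cdkn1a, the cell cycle inhibitor p21, read 9.07, 8.91 and 8.71 against 7.77 and 8.12. The genes most like Pecam1, the constitutive member with the largest difference, were St3gal4 (0.039), Relb (0.048) and Serpinb9 (0.054), and all 3 were lowest on NZW array 2 and highest on NZB_W array 3. These genes were chosen for their likeness, so their differences are not further evidence.

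**Figure D4:**
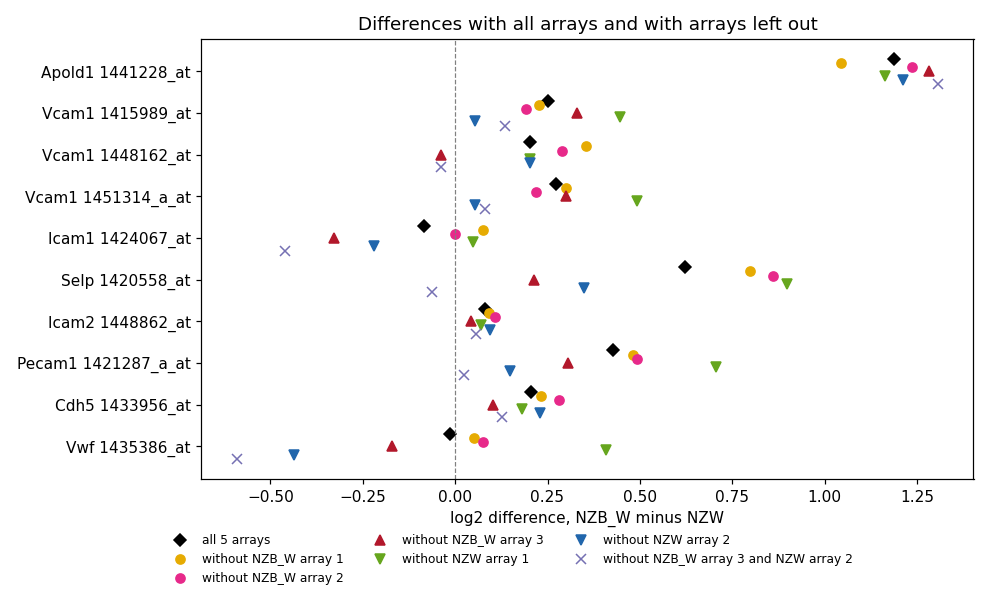
Log2 difference (NZB_W minus NZW) of the 10 member probe sets tested, with all 5 arrays (black diamonds), with each array left out, and with NZB_W 3 and NZW 2 both left out (crosses). Apold1 stays between 1.04 and 1.31, whereas Vwf runs from -0.59 to 0.41 and Icam1 and the brightest Vcam1 probe set lie on both sides of 0.

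Leaving out any 1 array left the Apold1 difference between 1.04 and 1.28, and it was 1.31 with NZB_W 3 and NZW 2 both left out. Its adjusted p did not fall under 0.05 in any of these fits. For each of the other 9 probe sets tested, leaving out 1 array moved the difference by over 1.5 times or turned its sign.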

How the data were processed

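The deposited values are expression on a log2 scale, 1 per probe set and array, in a single table for all 5 samples. RMA, GCRMA and Partek are named, without roles, in the submitters' processing notes. The sources used here do not say which produced the table, and these methods differ most for dim probe sets. Groups come from the titles, and 0 columns were unmatched. Gene symbols come from the platform annotation, and all 10 members matched RefSeq by Entrez identifier. The members and gene lists were chosen with earlier results of these data known.

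Of 45101 probe sets, 64 controls were left out and 22804 exceeded the median of their array on at least 2 arrays. Each of these was fitted by group alone in R 4.3.3 with limma 3.58.1 (lmFit, then eBayes). P-values are two-sided and were adjusted by Benjamini-Hochberg across the 22804. The fit was checked on simulated data. SE and 95% intervals are limma's moderated ones, for which the prior added 1.61 degrees of freedom to 3 residual ones. Dim members were fitted without the filter. P-values set each difference against the spread between these arrays, moderated across probe sets. The small number of arrays limits precision. Lists use each gene's brightest probe set. Named list genes are the members' partners and up to 3 per list with the smallest p. For Apold1 and Pecam1, with the largest difference in their class, the 3 most similar genes are named. Alternatives covered normalization, filter, variance model, weights, probe set choice, a replicate block and arrays left out. Figures used matplotlib 3.10.9.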

Additional observations from a re-analysis of the deposited data

How the results depend on the processing

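No member was called under any of the 17 alternatives, in which 0 to 16 probe sets passed in all (16 with array weights, 5 as reported). The Apold1 difference lay between 1.04 and 1.31, with adjusted p from 0.163 to 1. Activation minus constitutive stayed within 1 SD of its reported value except with class means (0.206); it was -0.075 without Apold1, a setting chosen after seeing the data. The count of member probe sets with every NZB_W array above both NZW arrays was 4 to 8 with 1 array left out (8 without NZW array 1), and that of those below was 0 to 1, or 2 without NZB_W array 3 and NZW array 2 together. No share over all probe sets was computed in these settings, and with fewer arrays groups separate more easily by chance. Signs turned for Vwf, Icam1, Vcam1 (1448162_at) and Selp. Vwf was 0.0059 after quantile normalization, and with 1 array left out Vwf ran from -0.436 to 0.408, Icam1 from -0.328 to 0.0743 and this Vcam1 probe set from -0.0381 to 0.355. Without NZB_W array 3 and NZW array 2 together it gave -0.0381 and Selp -0.0629. With the replicate block, which leaves NZB_W array 3 out of the comparison, Vcam1 gave -0.0381, Apold1 1.28 (adjusted p = 0.568) and activation minus constitutive -0.11. The numbers were not taken as pairs. Deviations of same-numbered arrays had correlations of -0.031 and 0.035. With 2 NZW arrays these deviations are mirror images, so the check can say little about a shared batch. The cause of these changes was not tested. Brightness limits Sele, Esm1, 2 Selp probe sets and 1 of Cdh5.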
